A study of Mus musculus with 6 samples.

Results

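The tumour necrosis factor (TNF) superfamily was followed in mouse plasmacytoid dendritic cells that had been stimulated through TLR7. Its ligands and receptors were taken as all genes whose symbol is Tnfsf or Tnfrsf with a number and at most 1 letter. This gave 31 of the 52550 genes in the files, namely 11 ligands and 20 receptors, and the rule reads symbols only, although it was chosen with earlier results of these data known. The 20 members with a mean normalized count of at least 10 over the 6 libraries, 5 ligands and 15 receptors, are described one by one. Just inside this limit stood Tnfrsf22 (mean 16.5) and Tnfrsf23 (12.2), and just outside it Tnfrsf26 (9.88) and Tnfsf12 (8.07).

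The cells were splenic and from C57BL/6 mice, and the labels name no engineered allele. All 6 libraries were made 12 hours after stimulation with R837 (imiquimod), which activates TLR7. The comparison is between 3 libraries with R837 alone and 3 with R837 plus taurine, a sulfur-containing amino acid found at high concentration in many tissues. The labels do not state ages or whether the replicates are separate mice or cultures, and unstimulated cells were not analysed here. Each value therefore describes R837-stimulated cells, and each p-value measures only the spread between these libraries, which may be technical.

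Ligands of this superfamily are mostly trimers anchored in the cell membrane, from which some are shed. Their receptors carry cysteine-rich repeats outside the cell. Inside, some carry a death domain that can start caspase activation, and others bind TRAF adaptors that switch on NF-kB and MAP kinases. On dendritic cells the family is known for costimulation of T cells, for survival signals to B cells and, on activated plasmacytoid dendritic cells, for the death ligand TRAIL.

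Recovered reads on genes ranged from 33585080 to 38392654 per library, and libraries differed from others of their group by more than counting noise. All 12 listed markers of plasmacytoid dendritic cells were expressed, with a summed normalized count of 289138 to 322205 with R837 and 304403 to 316305 with taurine. With taurine, 2 were called higher (Bst2 and Cox6a2, log2 changes 0.38 and 0.55), beside 3.75% of all tested genes. Another 4 were called lower (Tcf4 -0.51, Runx2 -0.60, Pacsin1 -0.38 and Klk1 -0.35), beside 2.66% of all tested genes. Ly6d and Spib (means of 106829 and 55090 over 6 libraries) weigh most in the sum, so it does not show these changes. Nor does it show the spread of Tlr7, whose product R837 activates. Tlr7 had 19615, 7398 and 8947 with R837 and 16481, 13909 and 11919 with taurine (replicates 1 to 3). Its groups overlapped, with a log2 change of 0.36 (95% interval -0.35 to 1.06). The 7 T cell markers summed to 701 to 814 and 623 to 744, with Cd3d and Cd3g at 0 in all libraries, and the 5 NK cell markers to 31.2 to 64.2 and 25.5 to 50.4, with Gzma and Prf1 at 0, and none of those tested passed. The 7 neutrophil markers summed to 1172 to 1707 with R837 and 1717 to 2079 with taurine (1 of 7 higher, Ngp). The 6 conventional dendritic cell markers summed to 22804 to 23834 and 19721 to 20499 (1 of 6 lower, Clec9a). The 6 endothelial and stromal markers summed to 100156 to 119294 and 83027 to 89072 (2 of 4 tested lower, Kdr and Cdh5). Each of these sums was without overlap between the groups. The last was carried by Kdr, Pecam1 and Cdh5 (means over 6 libraries of 59179, 25380 and 14075). The others on that list, Tek (2.02), Pdgfrb (10.5) and Col1a1 (0), were scarce or absent. The 7 monocyte and macrophage markers summed to 12164 to 13535 and 13255 to 15853, and the 4 plasma cell markers to 20889 to 23503 and 20545 to 21229, with none past the threshold. Most of the plasma cell sum was Xbp1 (mean 20396 over 6 libraries), with Prdm1 at 864, Sdc1 at 360 and Jchain at 56.6. Their part in the results below was not tested. In such bulk samples, fewer cells of a type and less RNA per cell cannot be told apart.

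With taurine, 4 of the 20 members rose and none fell. They were the death ligand Tnfsf10 (TRAIL), the TNF receptor Tnfrsf1a, the costimulatory receptor Tnfrsf4 (OX40) and the TWEAK receptor Tnfrsf12a (Fn14), with log2 changes between 0.49 and 0.94. Each change is the mean of log2(normalized count + 1) with taurine less that without it, and a change was called at a Benjamini-Hochberg adjusted p under 0.05 from limma over 15265 genes. Over all tested genes, 6.41% were called, 3.75% higher and 2.66% lower. The 4 calls are 20.0% of the members tested, and the members' median log2 change was 0.19, against -0.01 over all tested genes. When library totals were scaled without the 50 most abundant genes, 462 genes were called higher and 585 lower in place of 573 and 406, while the members again gave 4 higher and 0 lower. At an unadjusted p under 0.05, 6 members were higher and 1 was lower. edgeR on the recovered reads called 4 higher and 0 lower, and DESeq2 5 higher and 1 lower. All 3 taurine libraries lay above all 3 R837 libraries for 7 of the 20 members and below them for 1, where 14.6% and 15.0% of tested genes did so (29.6% in either direction).

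**Figure D1:**
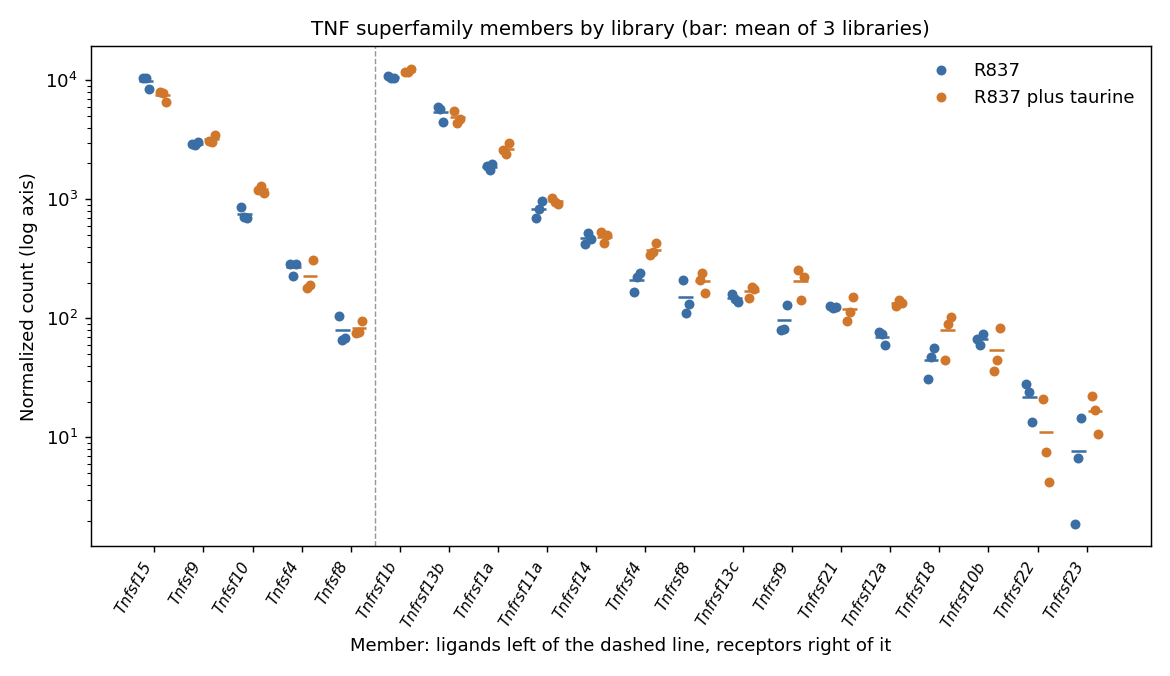
Normalized count (log axis) of each of the 20 members in each library, with points for single libraries and bars for the mean of 3 libraries. Means over 6 libraries run from 11307 for Tnfrsf1b to 16.5 and 12.2 for Tnfrsf22 and Tnfrsf23. The groups do not overlap for the called Tnfsf10, Tnfrsf1a, Tnfrsf4 and Tnfrsf12a. Nor do they for Tnfrsf1b, Tnfsf9, Tnfrsf9 and, with taurine lower, Tnfsf15, which were not called. Over all tested genes, 29.6% did not overlap.

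Tnfsf10 encodes TRAIL, a ligand that can trigger apoptosis through death-domain receptors and whose gene is inducible by interferon (ENSMUSG00000039304.11, chr3:27317028-27342427, plus strand). Its normalized counts under R837 alone were 859.5, 713 and 691, and under R837 plus taurine 1203, 1301 and 1141, here as elsewhere in the order of replicates 1, 2 and 3. Every taurine library was above every R837 library, and the gap between the groups was wider than the spread within either. The mean went from 755 ± 91.4 to 1215 ± 80.7 (SD, n = 3), a log2 change of 0.69 ± 0.12 (SE) with an adjusted p of 0.0157 by limma.

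The receptor through which TRAIL signals in the mouse, Tnfrsf10b, did not pass (adjusted p = 0.577 by limma). It had 67.0, 59.7 and 73.9 with R837 and 36.3, 44.7 and 82.8 with taurine, so the groups overlapped, and taurine replicate 3 was the highest of the 6 libraries. The log2 change was -0.37 with a 95% interval of -1.18 to 0.44. Tnfrsf22 and Tnfrsf23 are decoy receptors for TRAIL that lack a death domain. Tnfrsf22 had 28.3, 24.1 and 13.5 against 21.2, 7.62 and 4.25, and Tnfrsf23 had 1.89, 6.74 and 14.6 against 22.2, 17.1 and 10.6. These are at most 30 reads in any library, the groups overlapped, and the intervals of -2.74 to 0.46 and -0.58 to 3.12 are wide. The genes are neighbours in a cluster of related copies with Tnfrsf26, so the split of reads between them is uncertain.

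Tnfrsf1a encodes the death-domain receptor for TNF and lymphotoxin alpha (ENSMUSG00000030341.17, chr6:125349362-125362484, plus strand). It had 1911.5, 1770.2 and 1967 with R837 and 2572, 2414 and 2959 with taurine, with no overlap. The mean went from 1883 ± 101 to 2649 ± 281 (SD, n = 3), a log2 change of 0.49 ± 0.10 (SE) with an adjusted p of 0.0273 by limma. The other TNF receptor, Tnfrsf1b, has no death domain and signals through TRAF proteins (ENSMUSG00000028599.10, chr4:145213463-145246870, minus strand). It had 10849, 10497 and 10505 with R837 and 11684, 11790.0 and 12517 with taurine. The groups were also separate here, but the difference was small (log2 change 0.18, 95% interval 0.04 to 0.31) and did not pass (adjusted p = 0.123 by limma).

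The ligands of these receptors carry other symbols. Tnf stood at 30455, 25679.5 and 23579 with R837 and 27561, 27785 and 26478 with taurine, and Lta at 20880.2, 18549 and 19610 against 19226, 19460.2 and 18684. Both overlapped between the groups. The log2 change was 0.05 for Tnf (95% interval -0.16 to 0.25) and -0.04 for Lta (-0.18 to 0.10), and that of Tnf turned to -0.029 under quantile normalization. Per kb of exon, the scale on which levels of different genes can be compared, Tnf had 16426 normalized counts and Lta 14029, Tnfrsf1b 2962 and Tnfrsf1a 874 as means of 6 libraries.

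Tnfrsf4 encodes OX40, best known as a costimulatory receptor of activated T cells (ENSMUSG00000029075.6, chr4:156013843-156016612, plus strand). It had 165, 222 and 243 with R837 and 343, 363 and 429.9 with taurine. All 3 taurine libraries were higher, and R837 replicate 1 was the lowest of all. The mean went from 210.0 ± 40.2 to 379 ± 45.5 (SD, n = 3), a log2 change of 0.86 ± 0.19 (SE) with an adjusted p of 0.0341 by limma. Its ligand Tnfsf4 (OX40L), which dendritic cells use to costimulate T cells, had 287, 228 and 288 with R837 and 179.7, 192 and 311 with taurine. Those groups overlapped, because taurine replicate 3 was the highest library and the other taurine libraries the lowest, and the change of -0.27 did not pass (95% interval -0.80 to 0.26).

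Tnfrsf12a encodes Fn14, a small receptor for TWEAK (ENSMUSG00000023905.14, chr17:23675447-23677449, minus strand). It had 77.4, 74.1 and 59.3 with R837 and 127, 143 and 135 with taurine, with no overlap. The mean went from 70.3 ± 9.61 to 135 ± 7.79 (SD, n = 3), a log2 change of 0.94 ± 0.22 (SE) with an adjusted p of 0.0436 by limma. The gene of TWEAK itself, Tnfsf12, was below the limit for description. It had 4, 0 and 6 reads under R837 alone and 7, 24 and 8 under R837 plus taurine. Its exons share 731 of 1515 bases with another protein-coding gene on the same strand, Tnfsfm13, so this low count is uncertain.

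**Figure D2:**
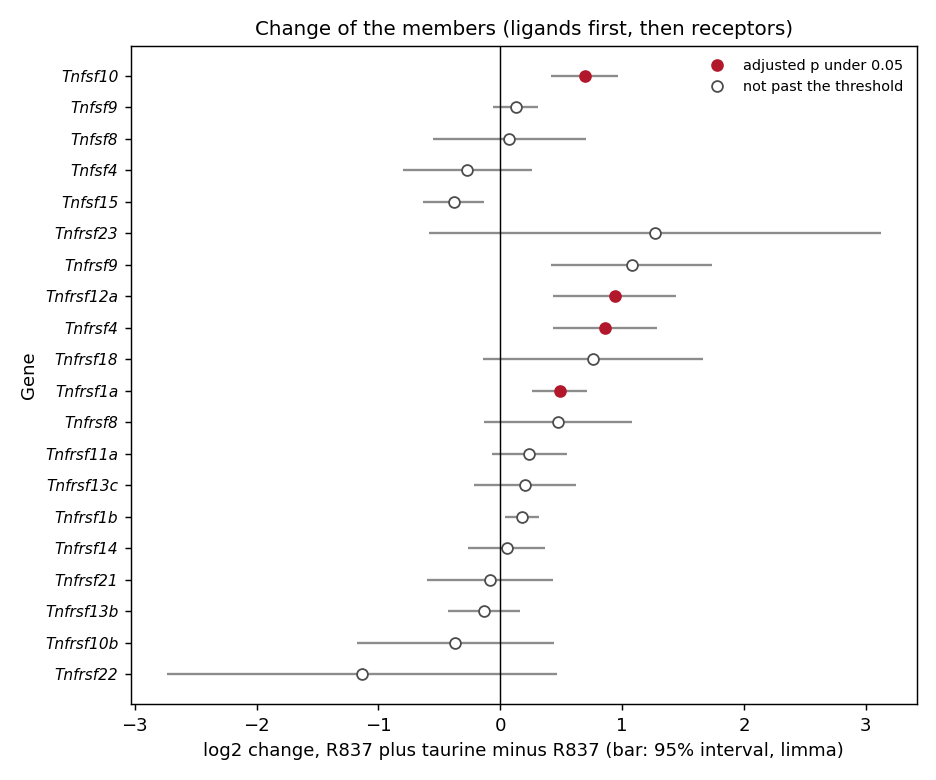
Change of each of the 20 members on the log2 scale (R837 plus taurine minus R837), ligands first, with 95% intervals from limma. Filled points are the 4 members past the adjusted threshold; the intervals of Tnfrsf9, Tnfsf15 and Tnfrsf1b also leave out 0 without passing it, and those of Tnfrsf22 and Tnfrsf23 are the widest.

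With 1 library left out, Tnfsf10 stayed past the threshold in 2 of 6 fits (without R837 replicate 1 or 3), Tnfrsf1a and Tnfrsf4 in 1 (without R837 replicate 3) and Tnfrsf12a in 0, and the number of members called was 1, 0 and 5 without R837 replicates 1, 2 and 3, and 0 without any of the 3 taurine replicates. The log2 changes ran from 0.63 to 0.79 for Tnfsf10, 0.41 to 0.55 for Tnfrsf1a, 0.70 to 0.97 for Tnfrsf4 and 0.82 to 1.01 for Tnfrsf12a. With length and GC trends taken out of the log2 values, 2 members were called, Tnfsf10 and Tnfrsf1a. When limma's variance prior took no account of abundance, 0 members and 4 of all genes were called.

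**Figure D3:**
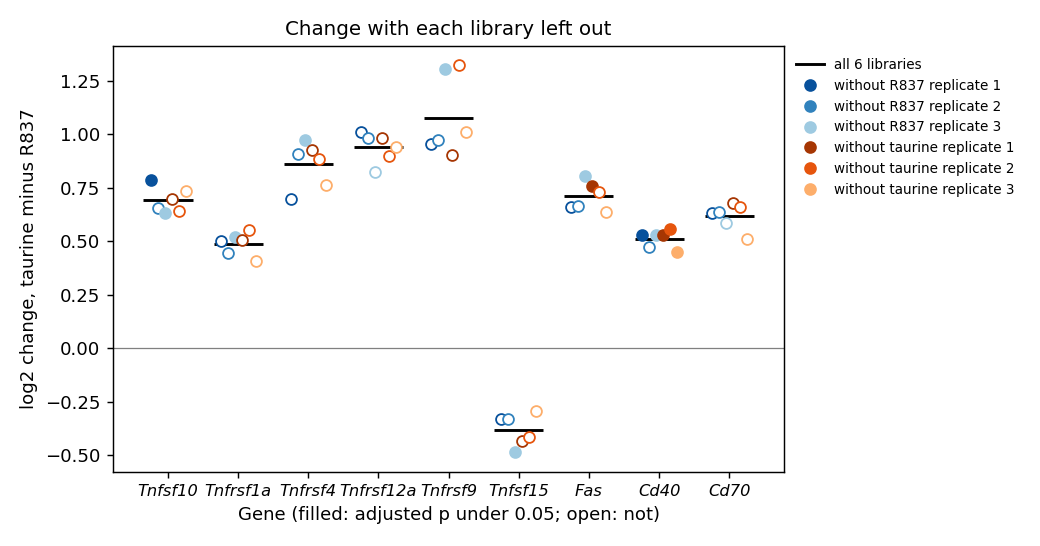
Log2 change (R837 plus taurine minus R837) of 9 superfamily genes with each library left out in turn; the black line is the fit to all 6 libraries, filled points passed an adjusted p of 0.05 by limma and open points did not. The direction stayed the same in every fit shown, and of the 7 genes called with all libraries, only Cd40 was past the threshold in more than 2 of the 6 fits.

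Promoter sequences were looked up for the 4 members that rose together and for 2 other receptors whose windows hold a searched motif. The RefSeq table (GRCm38.p6, the same assembly as mm10) held a window for 16 of the 20 members. In the 250 bases before each start, 3 motifs were searched on both strands: the interferon-stimulated response element core (GAAA, any 2 bases, GAAA), the AP-1 site TGANTCA and the NF-kB consensus, which may overlap one another. Of 32851 windows in the table, 2.98%, 6.75% and 7.25% held them. Printed are the longest stretches free of annotated exons, 5′ to 3′ on the gene's strand, at chr3:27316827-27317027 (plus), chr6:125349509-125349722 (plus), chr4:156013611-156013694 (plus), chr17:23677469-23677699 (minus), chr4:145246871-145247120 (minus) and chr4:145315165-145315414 (minus). Capitals mark motif matches.
Tnfsf10 promoter: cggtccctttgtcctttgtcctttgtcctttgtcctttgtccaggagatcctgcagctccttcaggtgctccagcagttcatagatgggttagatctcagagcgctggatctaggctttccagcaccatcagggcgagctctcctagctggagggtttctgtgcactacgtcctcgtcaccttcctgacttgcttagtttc
Tnfrsf1a promoter: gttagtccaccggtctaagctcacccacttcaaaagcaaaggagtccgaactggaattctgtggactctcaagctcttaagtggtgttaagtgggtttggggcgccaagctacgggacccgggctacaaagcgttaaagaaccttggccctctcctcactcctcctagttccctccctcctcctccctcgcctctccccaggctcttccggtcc
Tnfrsf4 promoter: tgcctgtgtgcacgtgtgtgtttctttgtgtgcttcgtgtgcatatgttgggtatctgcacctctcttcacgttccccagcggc
Tnfrsf12a promoter: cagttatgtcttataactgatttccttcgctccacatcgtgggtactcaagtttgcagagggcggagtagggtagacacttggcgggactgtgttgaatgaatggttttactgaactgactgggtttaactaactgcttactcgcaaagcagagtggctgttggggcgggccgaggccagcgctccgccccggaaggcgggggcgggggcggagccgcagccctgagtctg
Tnfrsf1b promoter: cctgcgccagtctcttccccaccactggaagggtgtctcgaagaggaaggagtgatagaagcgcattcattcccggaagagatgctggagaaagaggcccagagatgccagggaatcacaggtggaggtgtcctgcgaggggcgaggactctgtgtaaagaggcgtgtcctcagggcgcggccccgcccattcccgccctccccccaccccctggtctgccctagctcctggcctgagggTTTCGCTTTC
Tnfrsf8 promoter: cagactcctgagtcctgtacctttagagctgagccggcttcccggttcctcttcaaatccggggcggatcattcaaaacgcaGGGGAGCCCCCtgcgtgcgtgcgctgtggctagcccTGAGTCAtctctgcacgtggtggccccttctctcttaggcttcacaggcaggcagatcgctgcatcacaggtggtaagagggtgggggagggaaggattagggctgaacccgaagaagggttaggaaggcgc
None of the 4 members that rose held any of the 3 motifs in its 250 bases. For Tnfrsf1a these bases lie inside the gene as placed above, before a RefSeq start downstream of the annotated one. Their first 36 bases are an annotated exon of Tnfrsf1a, and the bases before the annotated start were not searched. The element core was found in 2 of the 16, on the minus strand 10 to 1 bases before the start of Tnfrsf1b and 64 to 55 bases before that of Tnfrsf14. The NF-kB consensus and the AP-1 site were found together in 2 of the 16, Tnfrsf8 (2 overlapping NF-kB matches) and the downstream start of Tnfrsf9, where the matches GGGGATTTCC and GGGATTTCCC overlap and TGAGTCA follows 15 to 9 bases before the start. The matches of Tnfrsf14 and Tnfrsf9 lie in annotated exons of the same genes, which take up the last 125 and 81 bases of these windows. A match is a run of letters only, and the lack of one says nothing of a factor's binding elsewhere.

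Among the costimulatory pairs, the receptor Tnfrsf9 (CD137), known from activated T cells, had the highest log2 change apart from that of the sparsely counted Tnfrsf23. It had 79.3, 81.8 and 130.1 with R837 and 256, 143 and 221 with taurine, with no overlap. The log2 change of 1.08 ± 0.29 (SE) had an adjusted p of 0.0630 by limma. DESeq2 called it, edgeR did not, and limma called it without R837 replicate 3, where the change was 1.31. Its ligand Tnfsf9, which antigen-presenting cells display to activated T cells, had 2915, 2844 and 3020.3 with R837 and 3100.5, 3044 and 3449 with taurine. These groups were separate by a narrow margin, with a log2 change of 0.13 (95% interval -0.06 to 0.31, adjusted p = 0.392 by limma). Exons of Tnfsf9 overlap those of an antisense transcript, Gm11110, by 192 bases, which had a mean normalized count of 49.4, so a small part of its reads is uncertain.

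Tnfsf8 (CD30 ligand) and its receptor Tnfrsf8 (CD30), a marker of activated lymphocytes, overlapped between the groups. Tnfsf8 had 104.7, 65.5 and 68.7 against 75.7, 76.2 and 95.5, and Tnfrsf8 had 209, 111 and 133 against 210.0, 242 and 165. The log2 changes were 0.07 (95% interval -0.55 to 0.70) and 0.48 (-0.13 to 1.08). Tnfrsf18 (GITR), a receptor known from regulatory T cells, had 31.1, 47.2 and 56.2 with R837 and 44.4, 90.4 and 103 with taurine, a log2 change of 0.76 that did not pass (95% interval -0.14 to 1.67). Its ligand Tnfsf18 had 4 reads in R837 replicate 3 and none elsewhere. Exons of Tnfrsf18 share 414 of 1524 bases with an antisense transcript, Gm16008 (mean normalized count 6.54), so a part of the Tnfrsf18 reads is uncertain. Tnfrsf14 (HVEM), which binds LIGHT and also inhibitory partners on lymphocytes, had 426, 518 and 464 against 527, 433 and 499, and Tnfsf14 (LIGHT) 12, 4 and 0 reads against 4, 12 and 0. The change of Tnfrsf14 was 0.05 with a 95% interval of -0.26 to 0.36.

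Tnfsf15 encodes TL1A, a ligand that costimulates T cells (ENSMUSG00000050395.8, chr4:63727084-63745113, minus strand). It had 10443, 10473 and 8422 with R837 and 8038, 7816 and 6618 with taurine. It was the only described member whose taurine libraries all lay below the R837 libraries, and R837 replicate 3 came closest to them. The mean went from 9779 ± 1176 to 7491 ± 764 (SD, n = 3), a log2 change of -0.38 ± 0.11 (SE) that did not pass (adjusted p = 0.0725 by limma). DESeq2 called it, and limma called it without R837 replicate 3, where the change was -0.49. With 2580 normalized counts per kb it stood beside Tnfsf9 (2374) as the highest described ligand on that scale. Its receptor Tnfrsf25 (DR3) had 8 reads in R837 replicate 3, 8 in taurine replicate 3 and none in the other libraries.

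Receptors for the B cell survival factors BAFF and APRIL differed in level. Tnfrsf13b (TACI) had 6005, 5721 and 4439 with R837 and 5569, 4400.5 and 4706 with taurine, and Tnfrsf13c (BAFF receptor) 159, 146 and 136 against 148, 185 and 177. Both overlapped between the groups, with log2 changes of -0.13 (95% interval -0.43 to 0.16) and 0.20 (-0.22 to 0.62). Per kb of exon the means were 1812 and 77.5. Tnfrsf17 (BCMA), the receptor typical of plasma cells, had no read in any library. The 8 listed B cell markers summed to 1913 to 3026 with R837 and 2026 to 2741 with taurine, with 0 of 7 tested past the threshold. The ligand genes Tnfsf13b (BAFF) and Tnfsf13 (APRIL) had at most 9 and 3 reads in any library. Exons of Tnfsf13 share 983 of 1637 bases with another protein-coding gene on the same strand, Tnfsfm13 (mean normalized count 1.73). Reads from the shared bases may not have been counted for Tnfsf13, so its low count is uncertain.

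Tnfrsf11a (RANK), a receptor known from osteoclast precursors and dendritic cells, had 693, 824 and 959.9 with R837 and 1025, 959 and 916 with taurine. The 3 taurine libraries lay close together and inside the upper part of the R837 range, apart from taurine replicate 1, and the change of 0.24 did not pass (95% interval -0.07 to 0.54). Its ligand Tnfsf11 (RANKL) had 4 reads in taurine replicate 3 and none elsewhere, and the soluble decoy Tnfrsf11b had no read. Tnfrsf21 (DR6), a death-domain receptor, had 126, 123 and 124 against 94.9, 112 and 151, a log2 change of -0.09 (-0.60 to 0.43).

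The 11 members below the limit had at most 24 reads in any library. Besides those named, Tnfrsf26 had 8, 24 and 0 reads under R837 alone and 4, 8 and 16 under R837 plus taurine, and Tnfrsf19 had none. For the 3 members with no read in any library (Tnfrsf11b, Tnfrsf17 and Tnfrsf19), a count of 0 allows up to 3 reads per library, or 0.0781 to 0.0893 CPM, and this covers counting error only.

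**Figure D4:**
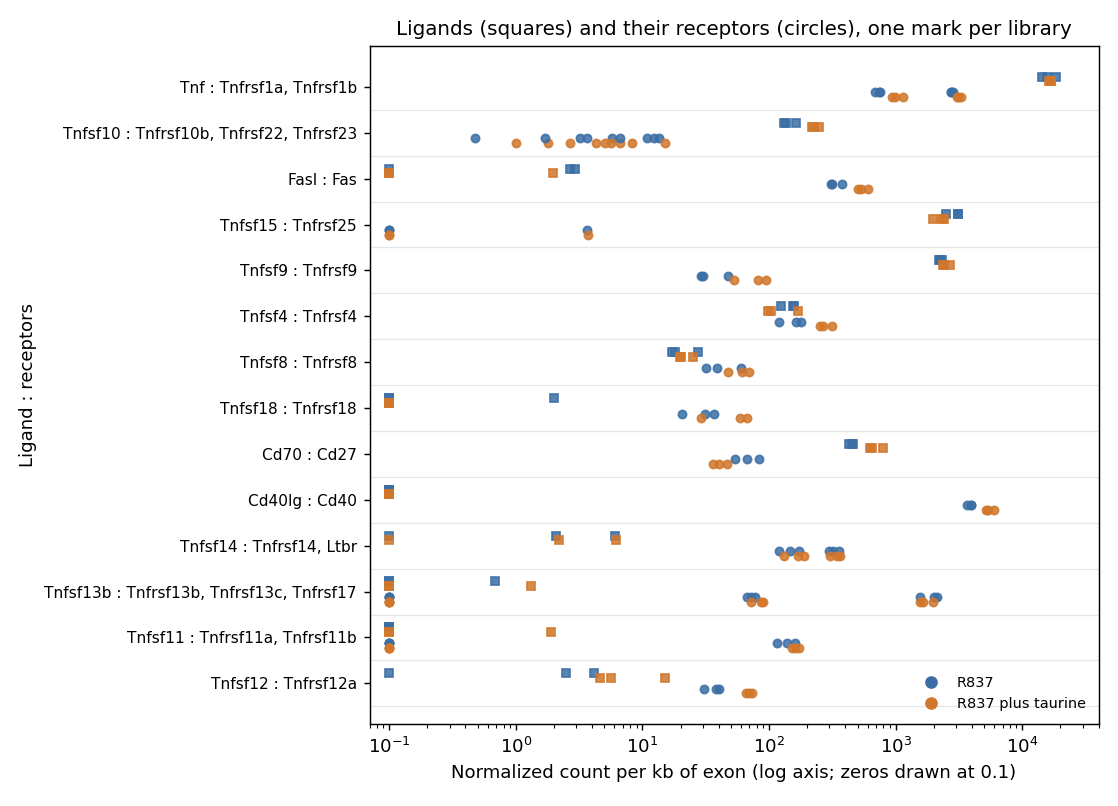
Normalized count per kb of exon (log axis) of ligands (squares) and their receptors (circles), with 1 mark per library and values of 0 drawn at 0.1. Among others, ligand and receptor lie far apart for Tnfsf15 and Tnfsf9, where the ligand is higher. At least 1 receptor lies far above the ligand for Tnfsf13b, Tnfsf11, Cd40lg, Fasl, Tnfsf14 and Tnfsf18.

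Levels of partners could be set beside each other only per length. Per kb of exon and as means of 6 libraries, Tnfsf9 had 2374 and Tnfrsf9 55.8, Tnfsf15 2580 and Tnfrsf25 1.23, and Tnfsf10 187 and Tnfrsf10b 11.1. Tnfsf4 (134) and Tnfrsf4 (216) were closer to each other. In R837 alone Tnfsf4 and Tnfrsf4 had 145 and 154, and with taurine 124 and 277.

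Of the 15 superfamily genes that go by other symbols, 10 were tested and 3 rose with taurine (30.0%, where 6.41% of all tested genes were called and 3.75% were called higher). None was called lower by limma (1 lower at an unadjusted p under 0.05; edgeR and DESeq2 called 3 higher and 0 lower). The death receptor Fas had 639, 645 and 782 with R837 and 1045, 1091 and 1238 with taurine (log2 change 0.71 ± 0.12 (SE), adjusted p = 0.0167 by limma). Cd70, the ligand of CD27, had 383, 386 and 359 against 528, 544 and 669 (log2 change 0.62 ± 0.14 (SE), adjusted p = 0.0352 by limma). Cd40, the receptor through which T helper cells license dendritic cells, had 13424, 12415 and 13428 against 18163, 17545 and 20369.8 (log2 change 0.51, adjusted p = 0.0101 by limma). In each of the 3 genes every taurine library was above every R837 library, as in 14.6% of all tested genes. With 1 library left out, Cd40 stayed past the threshold in 5 of 6 fits (lost without R837 replicate 2), Fas in 2 (without R837 replicate 3 or taurine replicate 1) and Cd70 in 0.

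Their partners were low or did not pass. Cd27 had 125, 193 and 156 against 93.9, 84.7 and 108, a separation in the other direction from that of its ligand Cd70, with a log2 change of -0.70 and an adjusted p of 0.106 by limma. Fasl had at most 6 reads in any library and Cd40lg none. Ltb, the membrane lymphotoxin subunit, had 430.2, 345 and 428 against 330.1, 259.9 and 381, and its receptor Ltbr 347, 284 and 403 against 442, 307 and 397. The log2 changes of -0.32 (95% interval -0.73 to 0.09) and 0.15 (-0.28 to 0.58) did not pass. Relt, a receptor without a settled ligand, had a change of 0.12 (-0.20 to 0.45), and the ectodysplasin gene Eda, with at most 22.6 normalized counts, 0.38 (-1.42 to 2.18).

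Several members lie side by side in the genome, and their log2 changes are given together. On chromosome 4, Tnfrsf4 and Tnfrsf18 are 9.55 kb apart on the same strand, with changes of 0.86 and 0.76, of which only the first was called. Tnfrsf1b and Tnfrsf8 are 20.3 kb apart (0.18 and 0.48), and Tnfsf15 and Tnfsf8 86.2 kb apart (-0.38 and 0.07). On chromosome 6, Ltbr lies 35.5 kb from Tnfrsf1a and 69.6 kb from Cd27, and the 3 genes had 0.15, 0.49 and -0.70. On chromosome 17, Tnfsf9, Cd70 and Tnfsf14 follow one another at 38.2 and 39.7 kb, with 0.13 for Tnfsf9 and 0.62 for Cd70 and at most 12 reads for Tnfsf14. The differences between neighbours were not tested.

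Signalling genes downstream of these receptors were taken from a fixed list. Of 46 listed adaptors, kinases, ubiquitin enzymes, NF-kB subunits and release factors, all were tested, 5 were higher and 0 lower (10.9% of the list, beside 6.41% of all tested genes), and the median log2 change was 0.08. At an unadjusted p under 0.05, 12 were higher and 3 lower; edgeR called 6 higher and 0 lower, and DESeq2 8 higher and 2 lower. The adaptor gene Traf1, an NF-kB target that binds TNFR2, had 25766, 25844 and 27489.9 with R837 and 30689, 31645 and 33589.5 with taurine (log2 change 0.28, adjusted p = 0.0330 by limma). Relb, an NF-kB subunit of the noncanonical pathway, had 10028, 10566.5 and 11297 against 14238, 12635 and 17222.5 (0.46, adjusted p = 0.0450 by limma). Whether that pathway was engaged was not tested. Mlkl, which executes necroptosis after death receptor signals, had 868, 601 and 769 against 1285, 1088 and 1230.3 (0.70, adjusted p = 0.0308). Traf4 (0.38, adjusted p = 0.0470) and Rhbdf2 (0.32, adjusted p = 0.0472), whose product escorts the protease that sheds TNF, were the other calls, and in each of the 5 genes the groups did not overlap. Over the list, all taurine libraries were higher for 13 of 46 genes and lower for 4, where 14.6% and 15.0% of all tested genes were so.

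Just beyond the threshold stood the linear ubiquitin ligase subunit gene Rbck1 (0.34, adjusted p = 0.0512), Traf2 (0.27, adjusted p = 0.0558) and, in the other direction, Traf3 (-0.46, adjusted p = 0.0543), an adaptor that holds the noncanonical pathway in check (all by limma). Traf3 had 1563, 1440.1 and 1206 with R837 and 1022, 967 and 1056 with taurine. The number of listed genes called was 1, 0 and 7 without R837 replicates 1, 2 and 3 and 0, 1 and 0 without taurine replicates 1, 2 and 3. It was 3 higher and 0 lower under quantile normalization, 2 higher and 1 lower when scaled without the 50 most abundant genes, 7 higher and 1 lower with a filter at a mean of 50, and 0 without a filter on low values. Traf3 was called lower in 4 of 12 other settings (the filter at 50, the scaling without the 50 most abundant genes, DESeq2, and removal of length and GC trends), with adjusted p-values from 0.00752 to 0.148 over the 12, and also by limma without R837 replicate 3, where its change was -0.56.

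**Figure D5:**
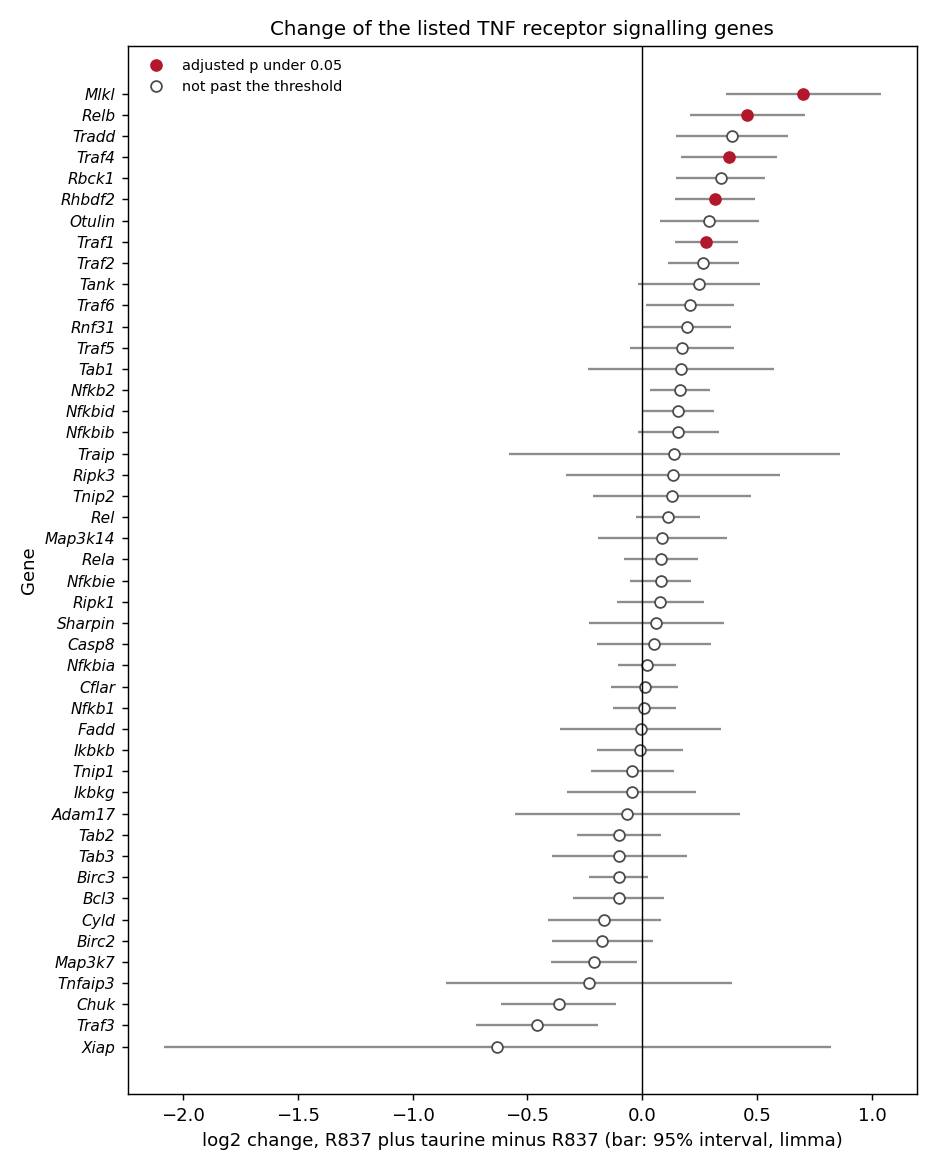
Change of the 46 listed TNF receptor signalling genes on the log2 scale (R837 plus taurine minus R837) with 95% intervals from limma. The 5 filled points, Mlkl, Relb, Traf4, Rhbdf2 and Traf1, are past the adjusted threshold and all lie above 0; 3 open points below 0, Traf3 among them, have intervals that leave out 0.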

How the data were processed

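For each of the 6 libraries (3 per group, grouped by title) the authors deposited a signal per gene under a heading that reads normCounts. Within a library all values were whole multiples of a single step (100% to within 0.001 of a read), so whole reads could be recovered, with size factors of 0.942 to 1.06. The submitters' processing notes list HISAT2, StringTie, mm8 and mm10 without roles or versions. How reads were counted and with which strand setting is not given in the sources used here, so overlapping genes cannot be told apart. Of 52403 identifiers shared with GENCODE M21, 95.2% had identical coordinates, so positions are mm10, and exon lengths came from that annotation.

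The main test was limma 3.58.1 (R 4.3.3) on log2(normalized count + 1), with 1 group term, an abundance trend and Benjamini-Hochberg adjustment, two-sided, over genes that reached 10 in 3 or more libraries. It was tested on simulated data. Alternatives were edgeR 4.0.16 (quasi-likelihood, TMM; 950 genes called) and DESeq2 1.42.0 on the recovered reads, other pseudocounts, filters and scalings, and leaving out each library. Removal of length and GC trends (mgcv 1.9.3) was added after seeing the data. Members, lists and the naming rule (all members with a mean of at least 10, and up to 8 signalling genes with the smallest p) were chosen with earlier results of these data known.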

Additional observations from a re-analysis of the deposited data

How the results depend on the processing

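Pseudocounts of 0.5 and 5, a mean filter of 50, quantile normalization, TMM scaling and edgeR each gave 4 members called. Without a filter on low values 2 members (1 receptor), 0 signalling genes and 547 genes in all were called. After removal of length and GC trends 2 members and 1 receptor were called. limma without its abundance trend called 0 members, 0 ligands, 0 receptors, 0 genes with other symbols, 0 signalling genes and 4 genes in all, with 6 members and 3217 genes at an unadjusted p under 0.05. DESeq2 called 2 ligands, 10 signalling genes (2 of them lower) and 1842 genes in all. Signalling genes called were 8 (1 of them lower) with the mean filter of 50, 3 under quantile normalization and 3 (1 of them lower) when scaled without the 50 most abundant genes. With 1 library left out, the counts ran from 0 to 5 for members, 0 to 2 for ligands, 0 to 3 for receptors, 0 to 2 for genes with other symbols, 0 to 7 for signalling genes and 134 to 1477 for all genes.

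Titles share replicate numbers, but deviations of same-numbered libraries from their group means did not correlate (r = -0.00264, -0.00681 and -0.0434 across genes). A value pooled over all genes cannot show whether same-numbered libraries share a mouse, culture or batch, so it is not known whether they are paired. With the replicate number as a block, 615 genes, 2 ligands (Tnfsf10 and, at an adjusted p of 0.0365, Tnfsf15), 2 receptors and 3 signalling genes were called.

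The sign of some changes that had not passed the test depended on the setting: Tnfrsf14 had -0.067 without the length and GC trends, Tnf -0.031 there and -0.029 under quantile normalization, and Eda -0.0062 by DESeq2. With 1 library left out the changes ran from -0.27 to 0.063 (Tnfrsf21), -0.049 to 0.29 (Tnfsf8), -0.017 to 0.13 (Tnfrsf14), -0.036 to 0.15 (Tnf), -0.082 to 0.0037 (Lta) and -0.48 to 0.82 (Eda). The causes were not tested. Members under about 100 normalized counts have wide intervals, which limits what can be said of Tnfsf8, Tnfrsf10b, Tnfrsf18, Tnfrsf22 and Tnfrsf23. The called Tnfrsf12a, with a mean of 103, is close to that level and has a 95% interval of 0.43 to 1.44.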
